A study of Homo sapiens with 3 samples.

Results

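Ribosome peaks were examined on 10 listed genes, U2AF1, U2AF2, SF3A1, SF3B1, SF3B2, SF3B3, PRPF8, SNRNP200, SNRNP70 and SNRPB, which encode the U2AF heterodimer and core proteins of the spliceosome. They were chosen by name, out of 3789 genes with a peak in any of 3 lists. Of the 10 genes, 9 carried at least 1 peak and SF3B1 carried 0. The genes held 280 peaks in all, with 78 of the 11219 in the vector list, 131 of the 19920 in the wild-type list and 71 of the 15680 in the G325E list.

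The spliceosome removes introns from pre-mRNA in a series of ordered steps. U1 snRNP, which contains the U1-70K protein encoded by SNRNP70, pairs with the 5′ splice site, while U2AF binds the polypyrimidine tract and the AG of the 3′ splice site. U2 snRNP, with its SF3A and SF3B complexes, then holds the branch point, and the U5 proteins PRPF8 and SNRNP200 shape and activate the catalytic centre. SmB, encoded by SNRPB, is part of the ring of Sm proteins around the spliceosomal snRNAs.

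HEK293T cells, a transformed human embryonic kidney line, had been transfected 24 h earlier with the empty pCDNA3.1 plasmid (vector), with DDX3X carrying a FLAG tag (wild-type) or with its tagged G325E mutant, on top of the DDX3X gene that all of them carry. DDX3X is a DEAD-box RNA helicase, and G325E is a substitution that the study took from medulloblastoma. The study asked where ribosomes lie on mRNA when each form of the helicase is expressed. Each construct had a single library without replicates, so no test between conditions was possible, and the 95% intervals below cover counting error only. Neighbouring peaks of a gene are not independent, so these intervals are too narrow even as counting error.

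Per the labels, cells were given harringtonine, a drug that stalls initiating ribosomes, at 2 µg/ml for 90 s and then cycloheximide, which arrests elongation, at 100 µg/ml, whereas the study's methods name cycloheximide alone. The files list the positions of peaks without heights or read counts, so a gene without a peak may still be translated below the calling threshold. Per the study's supplement, mapped reads without duplicates were most numerous for wild-type, then vector, then G325E. Peak numbers were scaled between lists but not by reads, and the part of depth in them was not tested. No RNA level was measured in these files, so less mRNA and fewer ribosomes on each mRNA cannot be told apart. On the expressed gene itself, DDX3X, the vector list had 0 peaks, the wild-type list 32 and the G325E list 9. The labels call the cells neuronal. Of 12 neuronal marker genes, 3 had peaks in each of the 3 lists. With vector, wild-type and G325E in turn, TUBB3 had 8, 6 and 5, NEFL 7, 10 and 13, and NEFM 16, 19 and 33. The other neuronal genes, MAP2 and RBFOX3 among them, had 0. Of 9 genes listed as epithelial and kidney markers, VIM, a mesenchymal gene often found in cultured lines, had 18 peaks with vector, 20 with wild-type and 19 with G325E. The keratin genes KRT18 and KRT8 had 11 and 1 peaks with wild-type and 0 in the other lists, and the other 6 had 0. The vector list skips 14.8% and the wild-type list 13.5% of the peak numbers they run to, and the G325E list skips 0%.

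Across the 10 genes together, peaks were scarcer in G325E. They made up 69.5 of every 10000 listed peaks with vector, 65.8 with wild-type and 45.3 with G325E. Scaled to the list totals, G325E had 1.45-fold fewer than wild-type (1.08 to 1.97) and 1.54-fold fewer than vector (1.1 to 2.15), and wild-type was 1.06-fold below vector (0.788 to 1.41). The G325E difference depended on the scale. Relative to peaks in annotated mRNA regions (the UTRs and coding sequence) alone, the log2 ratio of G325E to wild-type was -0.17 (-0.61 to 0.26) in place of -0.54 (-0.98 to -0.11), and that of G325E to vector -0.32 (-0.80 to 0.17) in place of -0.62 (-1.1 to -0.14).

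**Figure D1:**
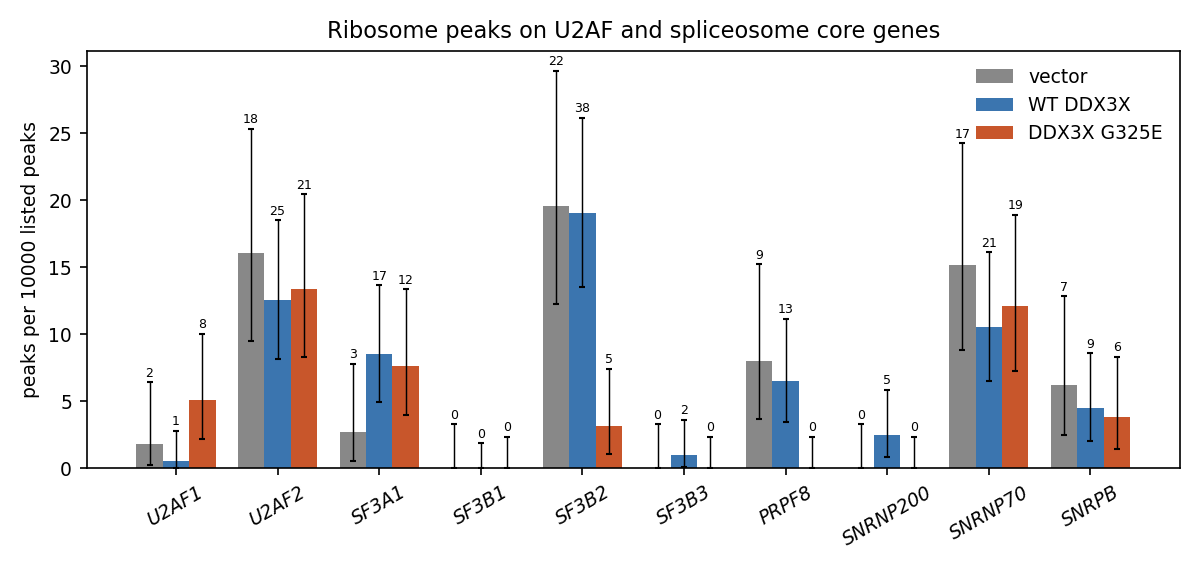
Bars give the peaks on each of the 10 genes per 10000 peaks of the list (vertical axis), for vector, wild-type (WT) DDX3X and DDX3X G325E, with the number of peaks printed above and 95% Poisson intervals as error bars. SF3B2 has 22 and 38 peaks in vector and wild-type and 5 in G325E, PRPF8 has 9, 13 and 0, and U2AF1 has 2, 1 and 8.

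The genes differed in direction. Among the 6 genes with at least 10 peaks in the G325E and wild-type lists together, 2 (SF3B2 and PRPF8) had at least 2-fold fewer scaled peaks in G325E and 0 had at least 2-fold more. Of all 1367 genes with as many peaks, 17% were at least 2-fold lower and 21.1% at least 2-fold higher. Against vector, 1 of 6 genes (SF3B2) was at least 2-fold lower, beside 18.1% of 1052 genes, and 2 (U2AF1 and SF3A1) were at least 2-fold higher, beside 22.4%. Between wild-type and vector, 1 of 6 (SF3A1) was at least 2-fold higher in wild-type, beside 14.1% of 1183 genes, and 0 were lower, beside 16.7%. With so few genes, these counts do not separate the 10 genes from the background. The ratios used a pseudocount of 0.5 peaks.

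U2AF1 encodes the small U2AF subunit, which contacts the AG at the 3′ end of the intron (GRCh37, chr21:44513066-44527680, minus strand, 8 exons). It had 2 peaks with vector, 1 with wild-type and 8 with G325E. The scaled ratio of G325E to wild-type was 10.2 (1.36 to 451) and to vector 2.86 (0.571 to 27.7), so the second interval spans no difference. All 3 lists had a peak at the start of the last coding exon, at the same position in vector and wild-type (chr21:44513328-44513359). In G325E this site is split into 2 of the 8 peaks. G325E alone had peaks over exon 1, the beginning of intron 1 and the promoter-TSS class upstream (chr21:44527367-44527727), including a peak on the start codon, and another further into the last exon.

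These 2 stretches of the last U2AF1 coding exon are shown because they separate a shared peak from a G325E peak. Both are on the minus strand of GRCh37, 5′ to 3′, with bases under a peak in all 3 lists in capitals.
U2AF1 shared site, chr21:44513328-44513359: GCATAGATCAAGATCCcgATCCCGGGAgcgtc
U2AF1 G325E site, chr21:44513229-44513310: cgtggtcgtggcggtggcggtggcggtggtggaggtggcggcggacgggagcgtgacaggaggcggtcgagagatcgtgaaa
The shared site was 59.4% GC and the G325E site 70.7%. The mean GC content in the 31 nt around U2AF1 peaks was 51.6% with vector (n = 2 peaks), 58.1% with wild-type (1 peak) and 71.0% with G325E (8 peaks). Outside the 10 genes it was 62.8%, 62.3% and 73.2%, so the G325E list was richer in GC as a whole, and the part of this in the U2AF1 peaks was not tested. U2AF1 has a near-identical copy, U2AF1L5, in the newer GRCh38 gene table and not in the GRCh37 annotation used here, and reads from either cannot be separated.

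U2AF2 encodes the large subunit, which binds the polypyrimidine tract (chr19:56166401-56186082, plus strand, 12 exons). It had 18 peaks with vector, 25 with wild-type and 21 with G325E. The scaled ratio of G325E to wild-type was 1.07 (0.568 to 1.99) and to vector 0.835 (0.424 to 1.66). No peak lay beyond the 5′ part of the gene. The last coding position was codon 69 of 475 with vector, 143 with wild-type and 40 with G325E.

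Many U2AF2 peaks lay in the leader of the RefSeq transcript that starts upstream of the GENCODE canonical one. The 5′-UTR class held 9 peaks with vector, 9 with wild-type and 13 with G325E, and the coding class 3, 7 and 2. The leader from the first 5′-UTR peak to the base before the start codon spans 892 nt (chr19:56165579-56166470) and is 63.8% GC, and only its last 70 nt belong to the canonical transcript. Peaks of either strand covered 382 nt of it (42.8%) with vector, 521 nt (58.4%) with wild-type and 567 nt (63.6%) with G325E. The leader counts and coverage include 1 opposite-strand peak with vector, 0 with wild-type and 2 with G325E. Without those 2, of 29 and 43 nt, G325E covered less of the leader than wild-type. Of the bases covered on either strand, 314 were under peaks in all 3 lists and 124 in G325E alone.

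The extra G325E leader peaks lay largely where the other lists skip numbers. Peak numbers follow genome order, so a skipped number can be placed between its neighbours. The vector list skips 3 numbers between its leader peaks (chr19:56166110-56166341), a gap in which G325E has 3 peaks and wild-type 2. The wild-type list skips 1 number between its leader peaks (chr19:56166203-56166341), a gap in which G325E has 1 peak. Of the 3 merged leader sites that only G325E had, 2 overlap or fall in these gaps, and 1 (chr19:56165579-56165600) has no skipped number beside it in either list. The vector and wild-type lists have 1 peak each just upstream of that site, assigned to the neighbouring gene CCDC106, where the G325E list has its U2AF2 promoter peak (chr19:56165498-56165534). Counting the skipped numbers as peaks gives 12 leader peaks with vector, 10 with wild-type and 13 with G325E. What the skipped rows held was not tested.

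**Figure D2:**
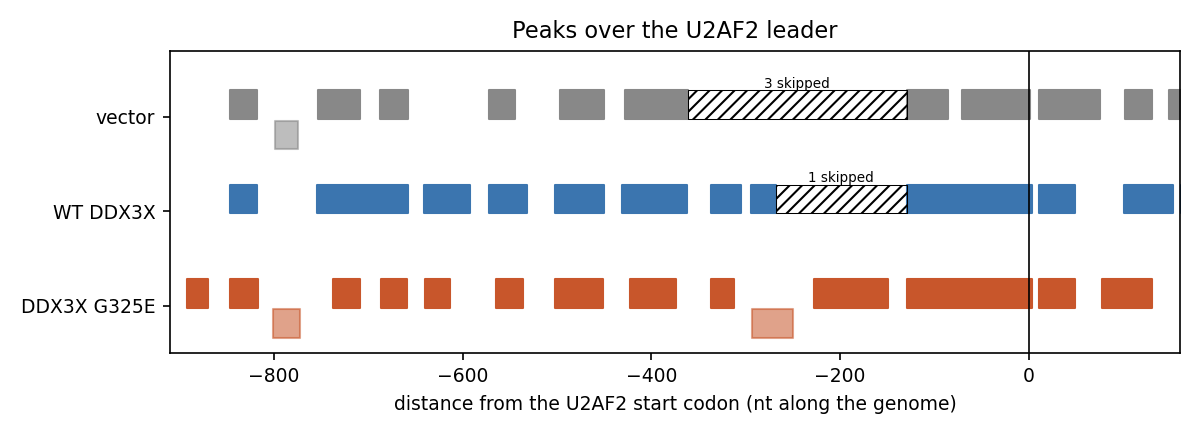
Peaks over the U2AF2 leader are drawn by distance from the start codon in nt (horizontal axis, start codon at 0), with 1 row per list, plus-strand peaks as full bars and opposite-strand peaks as paler bars below. Hatched boxes mark the stretches where the vector list skips 3 peak numbers and the wild-type list skips 1.

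The first of the following U2AF2 sites is the leader peak of G325E with no skipped number beside it, the second a leader peak in every list, and the last the whole of the shared exon 2 peak, which had the same start and end in all 3 lists. They are on the plus strand of GRCh37, with bases under a peak in all 3 lists in capitals.
U2AF2 G325E leader site, chr19:56165579-56165600: aggccctccgcgaggccggccc
U2AF2 shared leader site, chr19:56165625-56165653: CGGAGAGCCAGGTGCCGAGAACTAGGACc
U2AF2 shared exon 2 site, chr19:56170577-56170711: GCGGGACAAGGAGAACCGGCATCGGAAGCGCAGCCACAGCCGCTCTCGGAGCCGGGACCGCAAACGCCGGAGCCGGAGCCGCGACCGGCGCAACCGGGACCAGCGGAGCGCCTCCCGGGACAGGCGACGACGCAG
The exon 2 site codes for part of the arginine- and serine-rich domain near the N terminus of the protein and is 74.8% GC. The G325E leader site is 86.4% GC and the shared one 65.5%.

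SF3A1 encodes the largest SF3A subunit (chr22:30727977-30752883, minus strand, 16 exons). It had 3 peaks with vector, 17 with wild-type and 12 with G325E, so the vector list was the low one. The scaled ratio to vector was 3.19 (0.923 to 17.0) for wild-type and 2.86 (0.772 to 15.8) for G325E, and both intervals include 1. All 3 lists had a peak over the exon 1 start codon. Wild-type peaks then reached 8 of the 16 coding exons and G325E peaks 4, among them the same exons 1, 3 and 11. A wild-type peak on either strand overlapped 10 of the 12 in G325E (83.3%). These include a plus-strand G325E peak that met a minus-strand wild-type peak only at chr22:30753051. Another 4 of them lie within 1 wild-type peak of 245 nt in exon 11. In the other direction, 7 of the 17 wild-type peaks (41.2%) overlapped a G325E peak.

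SF3B1 and SF3B3 carry the HEAT-repeat scaffold and a beta-propeller scaffold of SF3B. SF3B1 (chr2:198254508-198299752, minus strand, 25 coding exons) had 0 peaks in every list. SF3B3 (chr16:70557719-70611571, plus strand) had 0 with vector, 2 with wild-type and 0 with G325E, both in a single coding exon at codons 783 and 811 of 1217. At these numbers no difference between the lists could be detected for either gene.

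SF3B2, an SF3B subunit that contacts the pre-mRNA near the branch point, had the lowest scaled ratio of G325E to the other lists among the 6 genes with peaks in every list (chr11:65819835-65836779, plus strand, 22 exons). It had 22 peaks with vector, 38 with wild-type and 5 with G325E. Scaled, G325E was 5.98-fold below wild-type (2.35 to 19.5) and 6.15-fold below vector (2.27 to 20.8), and wild-type was at 0.973 of vector (0.561 to 1.73). Vector peaks touched the coding sequence from codon 10 to 881 of 895 and wild-type peaks from codon 10 to 883, in 11 and 14 coding exons by peak midpoint. G325E peaks lay only in exons 12 and 13, from codon 447 to 535. The vector and wild-type peak on the start codon had no counterpart in G325E. No peak number is skipped within SF3B2 in any list. Of its peaks, 6 with vector, 16 with wild-type and 0 with G325E carry the name of the neighbouring gene PACS1 in the gene column and were assigned through their transcript. By the gene column alone G325E was 3.46-fold below wild-type (1.28 to 11.7) and 4.47-fold below vector (1.57 to 15.6).

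The SF3B2 exon 13 site is printed as 1 of the 2 sites where all 3 lists had a peak, on the plus strand with shared bases in capitals. The exon 11 site is a neighbouring stretch with peaks in vector and wild-type only.
SF3B2 exon 13 site, chr11:65827370-65827480: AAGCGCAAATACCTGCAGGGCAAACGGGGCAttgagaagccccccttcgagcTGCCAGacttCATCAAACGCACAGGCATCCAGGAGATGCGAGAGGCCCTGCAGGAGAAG
SF3B2 exon 11 site, chr11:65826679-65826809: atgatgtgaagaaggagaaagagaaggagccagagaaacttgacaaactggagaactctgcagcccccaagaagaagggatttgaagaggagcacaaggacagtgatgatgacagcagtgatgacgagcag
The exon 13 site is 58.6% GC and the exon 11 site 48.1%.

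PRPF8, the large U5 protein at the heart of the catalytic centre, had 9 peaks with vector, 13 with wild-type and 0 with G325E (chr17:1553923-1588161, minus strand, 43 exons). With 3 peaks put in place of 0 as a floor for the G325E list, the scaled value was 3.41-fold below wild-type and 4.19-fold below vector. These folds take the counts of 13 and 9 as exact and carry no interval. The vector and wild-type peaks occupied the same 5 coding exons near the 3′ end, from codon 2001 to 2244 of 2335 in vector and to 2272 in wild-type, and 8 of the 9 vector peaks (88.9%) overlapped a wild-type peak. The wild-type peak at codon 2272, 1 of the 13, lay on the opposite strand. The last wild-type peak on the strand of the gene was at codon 2236. All 22 PRPF8 peaks carry the name of the neighbouring gene RILP in the gene column of the files and were assigned through their transcript. No number is skipped within the gene.

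SNRNP200, the U5 helicase that unwinds U4 from U6, had 0 peaks with vector, 5 with wild-type and 0 with G325E (chr2:96940076-96971284, minus strand, 45 exons). The wild-type peaks lay in exons 1 and 2, intron 1 and the promoter, with 1 on the start codon and the last coding one at codon 59 of 2136. Of the 7 genes of the group with at least 5 wild-type peaks, 2 (PRPF8 and SNRNP200) had 0 in G325E, beside 31.9% of the 1682 such genes in the series, and 1 (SNRNP200) had 0 in vector, beside 29.7%.

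SNRNP70, which encodes U1-70K (chr19:49588708-49611861, plus strand, 10 exons), had 17 peaks with vector, 21 with wild-type and 19 with G325E. The scaled ratio of G325E to wild-type was 1.15 (0.585 to 2.25) and to vector 0.800 (0.394 to 1.64). The 5′-UTR class held 4, 4 and 5 peaks, all in exon 1 and its upstream extension, and the coding class 7, 8 and 8. Of these 5′-UTR peaks, 1 with vector and 1 with G325E lay on the opposite strand. The coding peaks lay in the last 3 exons, which include the arginine-rich C-terminal part of U1-70K, except for 2 in wild-type at codons 63 and 79. In the last exon G325E had a peak of 242 nt (chr19:49611381-49611622) where vector and wild-type had none, and each of those lists skips 1 number in just that gap.

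The SNRNP70 exon 8 site follows as a coding peak whose ends were identical in all 3 lists, on the plus strand with shared bases in capitals.
SNRNP70 exon 8 site, chr19:49607942-49607992: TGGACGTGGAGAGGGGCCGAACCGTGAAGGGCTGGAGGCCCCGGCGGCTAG

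SNRPB (chr20:2442288-2451435, minus strand, 7 exons) had 7 peaks with vector, 9 with wild-type and 6 with G325E. The scaled ratio of G325E to wild-type was 0.847 (0.248 to 2.66). Each list had 1 peak in the 5′-UTR class, which reached the start codon at the end of exon 1, and 4 in the coding class, in exons 2 and 3 and up to codon 83 of 231 with vector, 78 with wild-type and 82 with G325E. All 6 G325E peaks overlapped a peak in each of the other lists. SNRPN, a close paralogue, had 0 peaks in all lists, but short reads shared by the pair could have been placed on either gene.

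A peak on the annotated start codon was found for 4 of the 10 genes with vector, 5 with wild-type and 4 with G325E, and for 6 in any list. U2AF2, SF3A1 and SNRPB had it in all 3 lists, SF3B2 in vector and wild-type, SNRNP200 in wild-type alone and U2AF1 in G325E alone. The 30 nt around those start codons are shown on the coding strand, with 12 nt before the ATG, which is in capitals. In SNRPB the bases after the ATG belong to intron 1.
U2AF2, chr19:56166459-56166488: ggccgcctcagcATGtcggacttcgacgag
SF3A1, chr22:30752764-30752793: agcgtcgcagtcATGccggccggacccgtg
SNRPB, chr20:2451319-2451348: agaaccgccaccATGgtaaggagggcacag
SF3B2, chr11:65819844-65819873: cctgcggctaagATGgcgacggagcatccc
SNRNP200, chr2:96971158-96971187: gcagccgcggccATGgcggatgtaaccgcc
U2AF1, chr21:44527587-44527616: ggcgggtgggaaATGgcggagtatctggcc
The GC content of these windows ranged from 60.0% (SNRPB) to 73.3% (SF3A1 and SNRNP200).

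Regions were compared over all 10 genes. Region shares were taken over peaks annotated to untranslated or coding parts of the mRNA. The 5′-UTR class held 14 of 57 with vector (24.6%, Wilson 95% interval 15.2 to 37.1), 15 of 95 with wild-type (15.8%, 9.81 to 24.4) and 19 of 51 with G325E (37.3%, 25.3 to 51.0). The 3′-UTR class held 0 peaks in every list. G325E was 21.5 percentage points above wild-type (6.73 to 36.4, Newcombe's interval) and 12.7 above vector (-4.62 to 29.3), and wild-type was below vector by a difference of -8.77 points (-22.7 to 3.94). Among all other genes the share was 8.92%, 8.79% and 19%, so G325E had the highest share outside the 10 genes too.

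The difference from wild-type depended in large part on U2AF2. Without that gene it was 9.07 points (-2.82 to 24.8), and with regions taken from the canonical transcript, which lacks most of the U2AF2 leader, 11 points (-1.25 to 26.4). Counting the skipped numbers gave 20.9 points over wild-type (6.24 to 35.9) and 9.39 over vector (-7.75 to 26.2). Gene by gene, the 5′-UTR share was 75%, 56.2% and 86.7% for U2AF2 in vector, wild-type and G325E, 36.4%, 33.3% and 38.5% for SNRNP70, and 20% in every list for SNRPB. Of the 5 genes with at least 5 such peaks in both lists, 2 (U2AF2 and SNRNP70) had a higher share in G325E than in wild-type, beside 21.2% of 368 genes. For SNRNP70 this rested on 1 opposite-strand G325E peak (chr19:49588584-49588604), without which its share was that of wild-type. Against vector, 2 of 4 genes had a higher share in G325E, beside 21.9% of 269 genes. Between wild-type and vector, 0 of 5 were higher in wild-type, beside 15.7% of 447 genes.

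Scaled to list totals, coding peaks were fewer in G325E than in vector, while the 5′-UTR ratio was near 1 with a wide interval. The 10 genes had 12.5, 7.53 and 12.1 peaks of the 5′-UTR class per 10000 listed (vector, wild-type and G325E in turn), and the scaled ratio of G325E to vector was 0.971 (0.462 to 2.09) and to wild-type 1.61 (0.775 to 3.4). Coding peaks came to 38.3, 40.2 and 20.4 per 10000, so G325E was 1.97-fold below wild-type (1.29 to 3.07) and 1.88-fold below vector (1.16 to 3.07). In all other genes, G325E had 1.73-fold more 5′-UTR peaks than vector (1.57 to 1.92) and 1.39-fold fewer coding peaks (1.34 to 1.44). The difference between the 10 genes and the others was not tested. List totals include promoter-TSS peaks, which were 23.1%, 21.2% and 34.8% of peaks among all other genes. On the 10 genes they were 8.97%, 6.87% and 9.86%. These ratios therefore depend on the scale, and the 2 classes were not rescaled to region peaks.

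**Figure D3:**
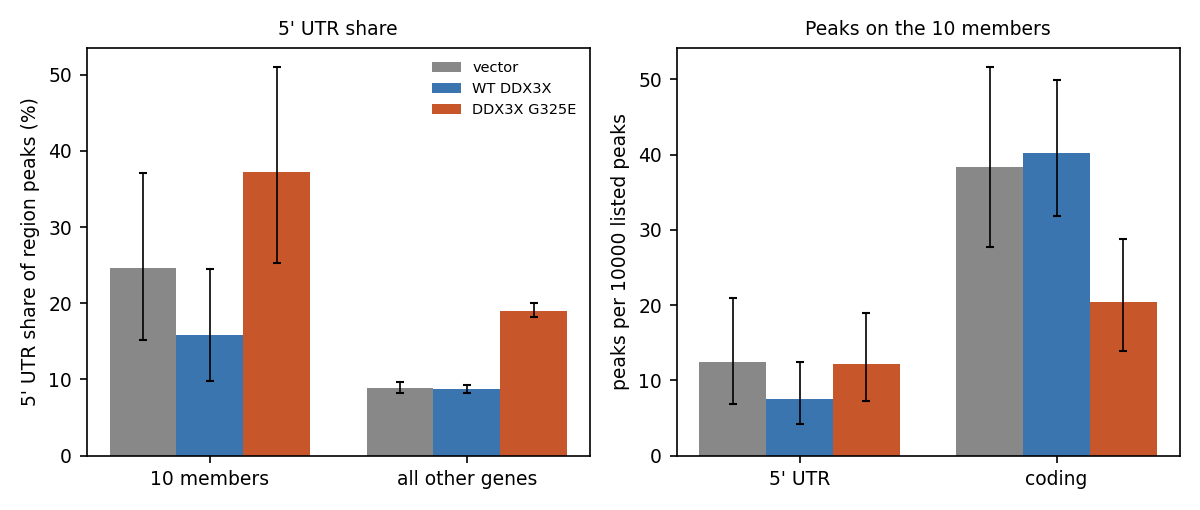
The left panel shows the 5′-UTR share of region peaks in percent, with Wilson 95% intervals, for the 10 genes and for all other genes. The right panel shows 5′-UTR and coding peaks of the 10 genes per 10000 listed peaks with 95% Poisson intervals, where the coding bar is at 40.2 in wild-type and 20.4 in G325E while the 5′-UTR bars of vector and G325E stand at 12.5 and 12.1.

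Along the coding sequence, peaks were patchy. Of the 211 coding exons of the canonical transcripts, 28 had a peak with vector, 44 with wild-type and 16 with G325E, and 12 had one in all 3 lists. A further 15 exons had peaks in vector and wild-type but not in G325E, and 2 in G325E alone. The first 25% of the coding sequence held 11 of 44 peaks with vector (25%), 22 of 81 with wild-type (27.2%) and 9 of 32 with G325E (28.1%). G325E differed from wild-type by 0.964 percentage points (-15.4 to 20.2) and from vector by 3.12 (-16.0 to 23.3), which is no detectable shift at this number of peaks.

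**Figure D4:**
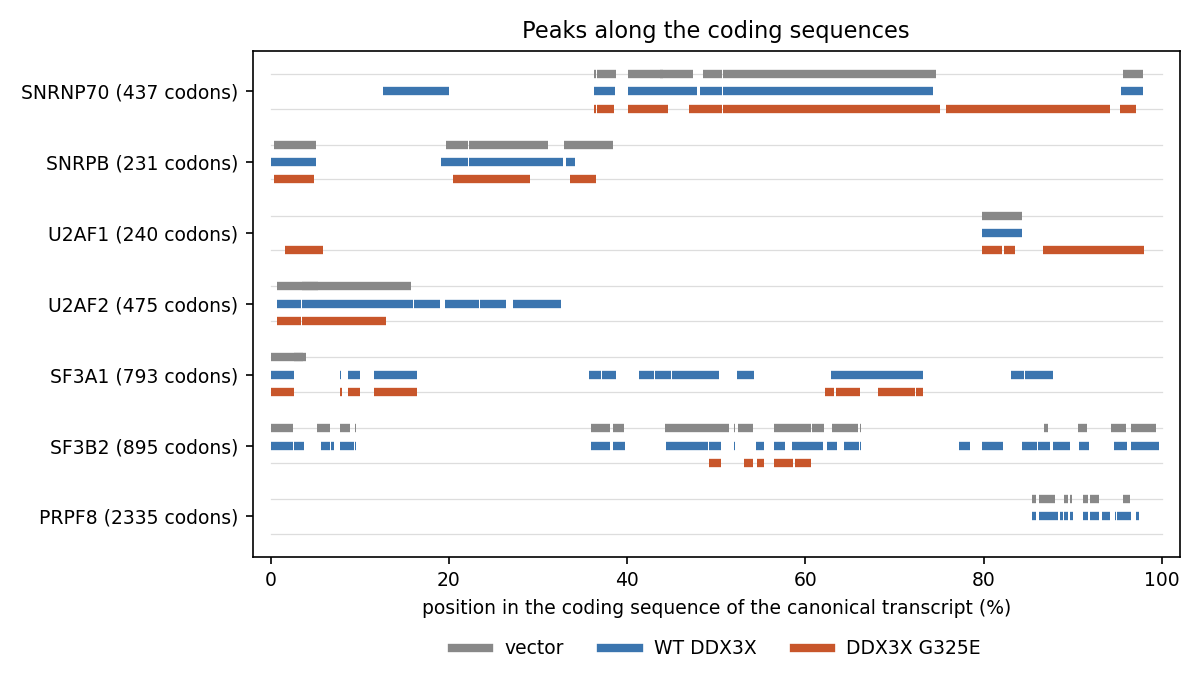
Bars mark peaks along the coding sequence of 7 of the genes, by position in percent of its length (horizontal axis), with a line each for vector, wild-type and G325E. PRPF8 peaks fill only the 3′ end and are absent in G325E, SF3B2 keeps only its middle in G325E, and U2AF2 peaks stop in the 5′ part in all lists.

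Most peaks of G325E on these genes were at places where another list had one. Overlap was counted on either strand and with peaks of any gene. Of 71, 48 overlapped a wild-type peak (67.6%, 56.1 to 77.3) and 38 a vector peak (53.5%, 42.0 to 64.6), and of 131 wild-type peaks 59 overlapped a vector peak (45.0%, 36.8 to 53.6). In the other direction 41 of 131 wild-type peaks (31.3%) and 37 of 78 vector peaks (47.4%) overlapped a G325E peak. For all other genes, 47.2% of those in G325E met a wild-type peak and 35.3% a vector peak, and 41.6% of wild-type peaks met a vector peak. In the other direction 34.95% of their wild-type peaks and 48.1% of their vector peaks met one in G325E. Merged per gene and strand over the lists, peaks assigned to the 10 genes made 167 sites. Of these, 28 were in all 3 lists, 27 in vector and wild-type only, 63 in wild-type alone and 22 in G325E alone. Of those 22, 7 lie in a gap between peaks where the vector or wild-type list skips a number. A skipped number cannot be matched to each of these sites. In U2AF2, 1 wild-type gap of 3897 nt skips 1 number and holds 3 G325E peaks. Another of the 22 sites (chr19:56165498-56165534) lies where both the vector and wild-type lists have a peak assigned to CCDC106. Since overlap ignored strand and gene, some of the 22 are also among the overlapping peaks above. Mean GC content was 75.3% over the sites in G325E alone, 61.9% over those in wild-type alone and 58.3% over those shared by vector and wild-type only. Each site counted equally whatever its length, and these groups differ in region. Coding sites were 4 of the 22, 33 of the 63 and 24 of the 27. Over coding sites alone the means were 61.5%, 57.8% and 56.8%. The part of GC content in these differences was not tested.

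In G325E, the genes with the lowest GC content and the longest coding sequences had 0 peaks. Per kb of coding sequence, wild-type peaks ran from 0 in SF3B1, 0.312 in SNRNP200, 0.548 in SF3B3, 1.39 in U2AF1 and 1.86 in PRPF8 to 4.91 in U2AF2, 5.77 in SNRPB, 6.10 in SNRNP70, 6.31 in SF3A1 and 10.8 in SF3B2. The 4 genes with 0 peaks in G325E were SF3B1, SF3B3, PRPF8 and SNRNP200, whose coding sequences had the lowest GC content (43.1% to 52.5%) and were also the longest (3651 to 7005 nt). The other 6 had 53.9% to 64.1% GC and 693 to 2685 nt. Of those 4 genes, SF3B1, SF3B3 and SNRNP200 also had 0 peaks with vector, so only PRPF8 set G325E apart from vector here. Across the 10 genes, the rank correlation of coding peaks per kb with GC content was 0.730 with vector, 0.733 with wild-type and 0.807 with G325E, and with length -0.632, -0.455 and -0.894. These are descriptions over 10 points that share 1 library each, and GC content and length cannot be told apart here.

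**Figure D5:**
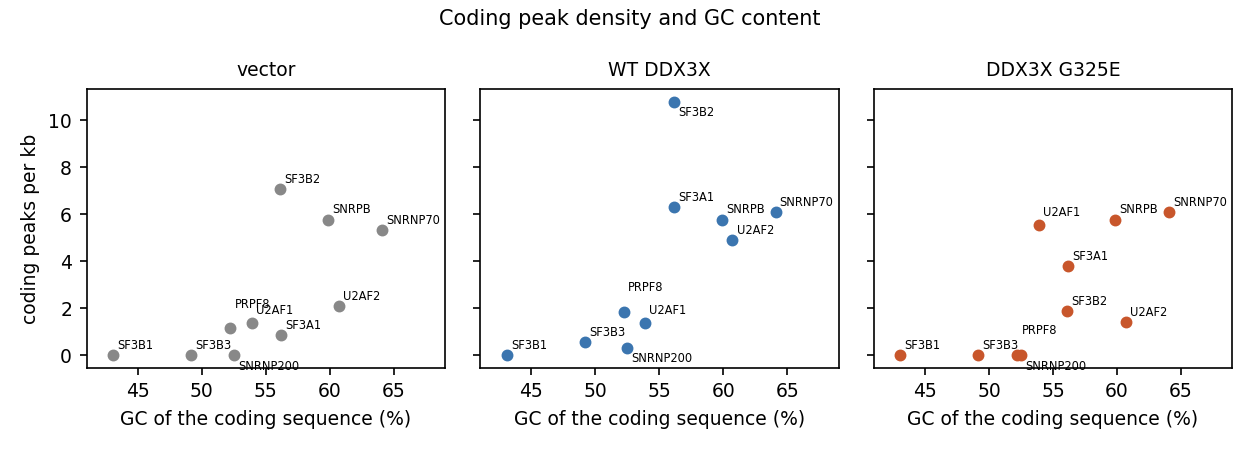
Each point is 1 of the 10 genes, with the GC content of its coding sequence in percent (horizontal axis) against coding peaks per kb (vertical axis), in a panel per list. The 4 genes of lowest GC content are at 0 in G325E, and all of them but PRPF8 are at 0 in vector too. SF3B2 is at 10.8 in wild-type and 1.86 in G325E.

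Other spliceosome genes were counted from a list of 77 symbols, of which 44 had a peak in any list, 31 with vector, 41 with wild-type and 26 with G325E. Of the 3789 genes of the series with a peak in any list, 2108 had one with vector, 3172 with wild-type and 2420 with G325E. The listed spliceosome genes held 115 peaks per 10000 with vector, 144 with wild-type and 88.7 with G325E. Of the 17 with at least 10 peaks in the G325E and wild-type lists together, 3 were at least 2-fold lower in G325E and 0 at least 2-fold higher. Against vector, 2 of 11 were lower and 2 higher, and wild-type against vector gave 1 of 19 lower and 3 higher. All of these stand beside the same backgrounds as above, from 14.1% to 22.4%. The 4 with the most peaks were PUF60 (4, 37 and 16 in vector, wild-type and G325E), which helps U2AF at weak 3′ splice sites, SF1 (4, 18 and 20), the branch-point binding protein, SNRPC (15, 17 and 7), the U1-C protein, and SNRPD2 (5, 12 and 10), an Sm ring protein. Their 5′-UTR class was small, at 4 of 84 region peaks with vector (4.76%), 6 of 199 with wild-type (3.02%) and 4 of 64 with G325E (6.25%) over the whole list.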

How the data were processed

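Ribosome footprints of HEK293T cells were analysed from 3 peak lists, 1 per construct, with groups taken from sample titles. As the study and the submitters' processing notes describe it, the authors trimmed adapters with cutadapt, aligned reads with BWA 0.5.5 to NCBI Build 37 with transcript and junction sequences, removed duplicates, called peaks per sample from base coverage and reviewed them by eye. The deposited columns used here are positions, strands and HOMER annotations, with no signal or count of reads. Per the file layout, HOMER puts peaks near a start site in a promoter-TSS class ahead of the 5′-UTR class.

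Peaks were assigned by the RefSeq transcript that annotates them. Of 45926 such peaks, 37265 were named by pairs within the files, 8396 by the RefSeq table of GRCh38 (names only) and 265 by neither, which kept their listed gene name. The exon class was taken as coding. Codon positions used peak midpoints on the canonical transcripts of GENCODE release 44 lifted to GRCh37. Coordinates are printed as listed. Among the 280 peaks, 51 start 1 base after the first base of a coding exon and 1 starts on it, while 53 end on an exon's last base, so listed starts appear to lie 1 base late. Sequences were read from GRCh37 at the listed positions. Peaks of no length were taken as 1 base.

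Ratios were scaled to list totals, with exact binomial 95% intervals, and overlap meant at least 1 bp on either strand. The members and gene lists were chosen with earlier results of these data known. All 10 members are named, with DDX3X as a label check and the 4 other spliceosome genes with the most peaks. The fold count was tried on simulated peak numbers. Alternatives were other region rules, strand, length, gene assignment, scaling and overlap rules, and leaving out U2AF2. Software was scipy 1.17.1 and numpy 2.4.6 under Python 3.11.15, together with matplotlib 3.10.9 and pandas 2.3.3.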

Additional observations from a re-analysis of the deposited data

How the results depend on the processing

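No paired analysis was possible because each construct has 1 library. Of 132 recomputed values over 14 alternatives, 125 stayed within the counting interval of the reported value or within 1.5 times the reported count, 7 moved and 0 changed the sign of a difference whose interval excluded 0. The number of genes at least 2-fold lower in G325E than in wild-type was 1 in place of 2 with peaks of at least 20 bp, with the gene name column alone, and with transcripts named within the files only (added after seeing the data). The number at least 2-fold higher in G325E than in vector was 1 in place of 2 with peaks of at least 20 bp and with the gene name column alone, which also gave 0 in place of 1 for wild-type over vector. With the gene name column alone, 22 peaks of PRPF8, 22 of SF3B2 and 2 of SF3B3 go to neighbouring genes. Scaled by the median ratio of genes, the log2 ratio of wild-type to vector was 0.43 in place of -0.08, and the cause was not tested. The log2 ratio of G325E to wild-type was negative under all 7 alternatives run for it, from -0.79 (median ratio) to -0.17 (region peaks), and its interval reached 0 with region peaks, with the gene name column alone (-0.19, -0.75 to 0.36) and with transcripts named within the files only (-0.36, -0.81 to 0.08). The ratio to vector was negative under all 7 too, and its interval reached 0 with region peaks (-0.32, -0.80 to 0.17), the median ratio (-0.33, -0.81 to 0.15), the gene name column alone (-0.45, -1.06 to 0.15) and transcripts named within the files only (-0.44, -0.94 to 0.06). The 5′-UTR share of G325E was above wild-type under all 10 run for it. Counting skipped numbers and keeping only the 6 genes with a peak in every list were also added after seeing the data. Peak lists without heights limit every value to presence or absence of a peak.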

Other observations

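Intronic peaks on the 10 genes were seldom shared between lists. The intron class held 14 peaks with vector (17.9%), 27 with wild-type (20.6%) and 13 with G325E (18.3%), beside 9.84%, 11.1% and 13.1% among all other genes. Most of these peaks lay on 2 of the 10 genes, U2AF2 (6, 8 and 5 in vector, wild-type and G325E) and SNRNP70 (4, 9 and 6). Of 46 merged intron sites, 2 were in all 3 lists, 23 in wild-type alone, 10 in G325E alone and 9 in vector alone, whereas 15 of 83 coding sites were in all 3. SNRNP70 held 17 of the intron sites and U2AF2 14. The SNRNP70 intron site shared by every list lay just after exon 9 (chr19:49610987-49611009).

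On the strand opposite to the gene, each list had 7 peaks (9.0% with vector, 5.3% with wild-type and 9.9% with G325E). An opposite-strand peak at the SNRPB transcription start ended at the same base in all 3 lists, at chr20:2451407-2451435 in vector and chr20:2451415-2451435 in wild-type and G325E.

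Among 5′-UTR peaks, the mean GC content of the 10 genes was 66.6% with vector, 66.4% with wild-type and 67.1% with G325E (14, 15 and 19 peaks), while that of all other genes was 70.1%, 69.5% and 76.9%. For coding peaks the G325E mean exceeded the wild-type mean by 3.39 percentage points on the 10 genes and by 9.58 points on all others. Neither contrast was tested.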
